A study of Homo sapiens with 6 samples.

Results

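The genes described here encode the proteasome, its activators and inhibitor, and the chaperones that assemble it. They are the protein-coding rows of the deposited gene table whose names start with PSMA, PSMB, PSMC, PSMD, PSME, PSMF or PSMG followed by a digit. The rule found 49 genes among 58735 rows, and 47 of them passed the filter on low counts, out of 15881 genes tested. PSMC3IP met the rule by its name alone: it encodes a partner of meiotic recombinases and is no proteasome part. PSMA8 and PSMB11, the alpha subunit of the testis and the beta subunit of the thymus, had 0 counts in all 6 libraries, which allows up to 3 counts in each, or 0.108 to 0.170 CPM (counts scaled to a common library size).

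RNA-seq was done on the line MDA-MB-231, of human breast cancer of the triple-negative kind, with the genotype given as WT. All cells had been stained with PKH26, a membrane dye diluted at each division, and grown for 12 days in DMEM with serum before sorting. Slow-cycling cells (SCC) were the brightest 1%, and rapid-cycling cells (RCC) were of moderate brightness per the protocol, though the sample characteristics call that fraction PKH26lo and the SCC fraction PKH26hi. Each group had 3 libraries of this single line, called biological replicates in the series' design text, which does not say whether cultures or sorts were separate. The p-values measure only the spread between these samples. Dye retention is the sole criterion of the sort, and a dye-bright gate can hold any cell that kept the stain.

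The proteasome is the main protease of the cytosol and nucleus. Its core particle (20S) is a barrel of alpha rings, which gate the entry, and beta rings, which hold the proteolytic sites. The regulatory particle (19S) caps the barrel, binds ubiquitin-tagged proteins, removes the tag and unfolds the protein with a ring of ATPases. In cells exposed to interferon, the beta subunits PSMB8, PSMB9 and PSMB10 replace the constitutive catalytic subunits and give the immunoproteasome. When proteasome activity falls short, the transcription factor NFE2L1 is known to raise the subunit genes together through antioxidant response elements in their promoters.

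The promoter stretches below are shown because the series title names AP-1 as regulator and because NFE2L1 acts through a related element. RefSeq promoter windows (GRCh38.p14, 250 bases before to 50 after a start site) were matched by symbol for 43 of the 49 genes. They were searched on both strands for the AP-1 site TGACTCA and for the antioxidant response element core TGACNNNGC. Both begin with TGAC, so TGACTCAGC would count for both. Capitals mark the match, and the strand printed is that of the gene.
PSMC5, AP-1 site, chr17:63827674-63827704, plus strand: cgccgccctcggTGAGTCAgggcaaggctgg
PSMD2, AP-1 site, chr3:184300507-184300537, plus strand: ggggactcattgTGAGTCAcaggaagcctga
PSMD9, AP-1 site, chr12:121888551-121888581, plus strand: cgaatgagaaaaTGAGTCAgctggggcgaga
PSMA4, response element core, chr15:78540648-78540680, plus strand: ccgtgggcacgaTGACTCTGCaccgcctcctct
PSMB3, response element core, chr17:38752625-38752657, plus strand: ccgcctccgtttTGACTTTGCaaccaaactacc
PSMC5, response element core, chr17:63827652-63827684, plus strand: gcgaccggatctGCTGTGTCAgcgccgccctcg
PSMD3, response element core, chr17:39980758-39980790, plus strand: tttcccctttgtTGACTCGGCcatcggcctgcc
PSMD12, response element core, chr17:67366722-67366754, minus strand: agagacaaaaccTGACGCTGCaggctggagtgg

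The AP-1 site was in the window of 3 of 43 genes (7.0%), PSMC5, PSMD2 and PSMD9, against 6.0% of 27305 genes with a window. The response element core was in 15 of 43 (34.9%), against 16.1% of all. The NF-Y box CCAAT was in 21 of 43 (48.8%, all genes 39.7%), the heat shock element GAANNTTC in 1 of 43 (2.3%, all genes 8.2%; the gene is PSMC3IP) and the cyclic AMP response element TGACGTCA in 0 of 43 (all genes 2.2%). None of the AP-1 matches in these genes overlapped a response element core. These counts describe letters in a window and say nothing of binding. A gene with several windows counted if any of them held the letters. The stretches printed for PSMA4, PSMC5 and PSMD2 lie inside the annotated gene, which starts at 78540405, 63827152 and 184298709, so their windows are those of later start sites.

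Summed counts were 17655855 to 27831824 per library. SCC replicate 1 stood apart. Its chi-square over degrees of freedom was 28.5 and 21.4 against the other SCC libraries, and 3.28 to 4.24 in every other pair within a group. Its deviation followed base composition, with a median log2 deviation of -0.24 in the decile of genes lowest in GC and 0.40 in the highest. Results are therefore also given without it. Markers of the line were present in every library (VIM, CD44, EGFR, AXL and CAV1 at 33.4 to 204 FPKM, a level scaled to gene length and library size), and the hormone receptor genes ESR1 and PGR were at 0.0498 FPKM or less. Of the low markers fixed for the line, CDH1 was at most 0.0698 FPKM, EPCAM 1.42 to 2.28 and ERBB2 6.88 to 10.2. All 6 leukocyte markers had some counts, with a summed level of 0.217 to 0.925 FPKM in SCC and 0.249 to 0.585 in RCC. Fibroblast markers, nearly all COL1A1, summed to 1.18 to 1.66 FPKM in SCC and 0.880 to 1.12 in RCC without overlap, and their part in the results was not tested.

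Proteasome genes were abundant and differed little between SCC and RCC. Together they took 0.603%, 0.646% and 0.644% of counts in SCC replicates 1 to 3 and 0.663%, 0.668% and 0.656% in RCC replicates 1 to 3. The mean was 0.631% ± 0.025 for SCC (SD, n = 3) and 0.662% ± 0.0060 for RCC (SD, n = 3). The groups did not overlap, and SCC replicate 1 was the lowest. The nearest libraries, SCC replicate 2 and RCC replicate 3, had 95% Wilson intervals of 0.643% to 0.650% and 0.652% to 0.660%, which cover counting error only. In a bulk sample, fewer cells of a type and less RNA per cell cannot be told apart.

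**Figure D1:**
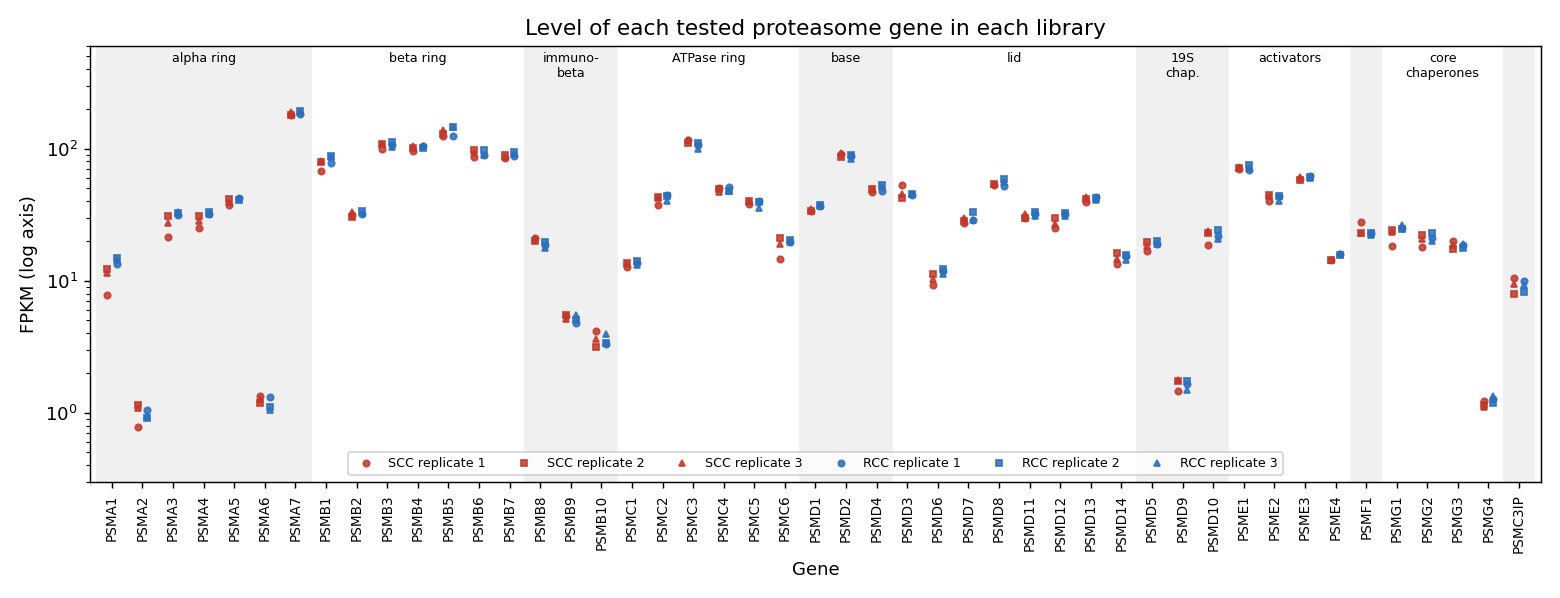
FPKM (log axis) of the 47 tested genes in each library, grouped by role; red marks are SCC, blue marks RCC, and the shapes are replicates 1 to 3. Most genes lie between 10 and 200 FPKM, PSMA2, PSMA6, PSMD9 and PSMG4 lie near 1 FPKM, and the red and blue marks of a gene lie close together.

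Levels are compared between genes in FPKM, which divides by gene length. PSMA7 was highest at 186 FPKM on average over the 6 libraries, followed by PSMB5 at 135 and PSMC3 at 109.9. Of the 47 genes, 40 were at 10 FPKM or more. The constitutive beta ring ran from 32.2 FPKM (PSMB2) to 135 (PSMB5). The alpha ring ran from 0.987 FPKM (PSMA2) to 186 (PSMA7), although the protein ring holds its subunits in equal number. PSMA2 and PSMA6, at 0.987 and 1.21 FPKM, share 14.6% and 14.1% of their exon bases with a protein-coding gene on the same strand (AC010132.3 and AL121594.1), which itself was at 0.0726 and 0.101 FPKM or less. PSMA1 (12.4 FPKM) shares 24.7% with AC018523.2, which had 0 counts. Reads in shared bases may be assigned to neither gene, depending on the counting setting, which is not given in the sources used here, so the levels of these 3 alpha genes are uncertain. With both strands counted, 13 of the 47 tested genes share over 10% of their exon bases with other genes, and PSMA2 shares 34.6%. PSMD9 shares 19.9% on the same strand. The deposited length also covers every annotated exon, for example 10418 bases for PSMG4 (1.21 FPKM) and 8774 for PSMD9 (1.64 FPKM). The part of overlap and length in these low levels was not tested.

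SCC were compared with RCC, the only contrast of the series. With edgeR (quasi-likelihood test, Benjamini-Hochberg adjusted p under 0.05), 0 of the 47 genes were higher and 0 were lower. Among all tested genes 1.69% were called higher and 0.378% lower, so a count of 0 is near the background. At an unadjusted p under 0.05, 0 genes were higher (all genes 11.4%) and 6 were lower (12.8%, all genes 8.27%). These 6 were PSMA1, PSMA3, PSMA4, PSMD6, PSMD12 and PSME4. DESeq2 called 1 gene, PSMA1, lower (all genes 1.3%) and 0 higher (all genes 3.38%). limma on log2(FPKM + 1) called 0 (all genes 1.04% higher and 0.288% lower). Over all 18 alternatives the background ran from 0.128% to 3.93% higher and from 0.00266% to 2.72% lower.

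The log2 fold changes of SCC over RCC had a median of -0.041 (all tested genes 0.003) and ran from -0.44 (PSMA1) to 0.15 (PSMB8). They were negative in 31 of 47 genes. In 43 of 47 (91.5%) the value was within 0.2 of zero, against 59.3% of all tested genes. The median standard error was 0.075 over these genes and 0.12 over all. The 95% interval of the fold change lay within 1.25-fold in either direction for 34 genes, within 1.5-fold for all but PSMA1, and within 2-fold for all 47. Among all 15881 tested genes it did so for 4688, 9813 and 12866. The median level was 30.2 FPKM over the 47 genes and 4.10 over all tested genes, so these shares compare genes of unlike level. The groups did not overlap for 1 gene higher in SCC (PSMB8; all genes 14.4%) and 8 lower (17.0%; all genes 13.4%). The 15 genes with a response element core had a median of -0.010, and the 26 tested genes with a window and no core -0.040.

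**Figure D2:**
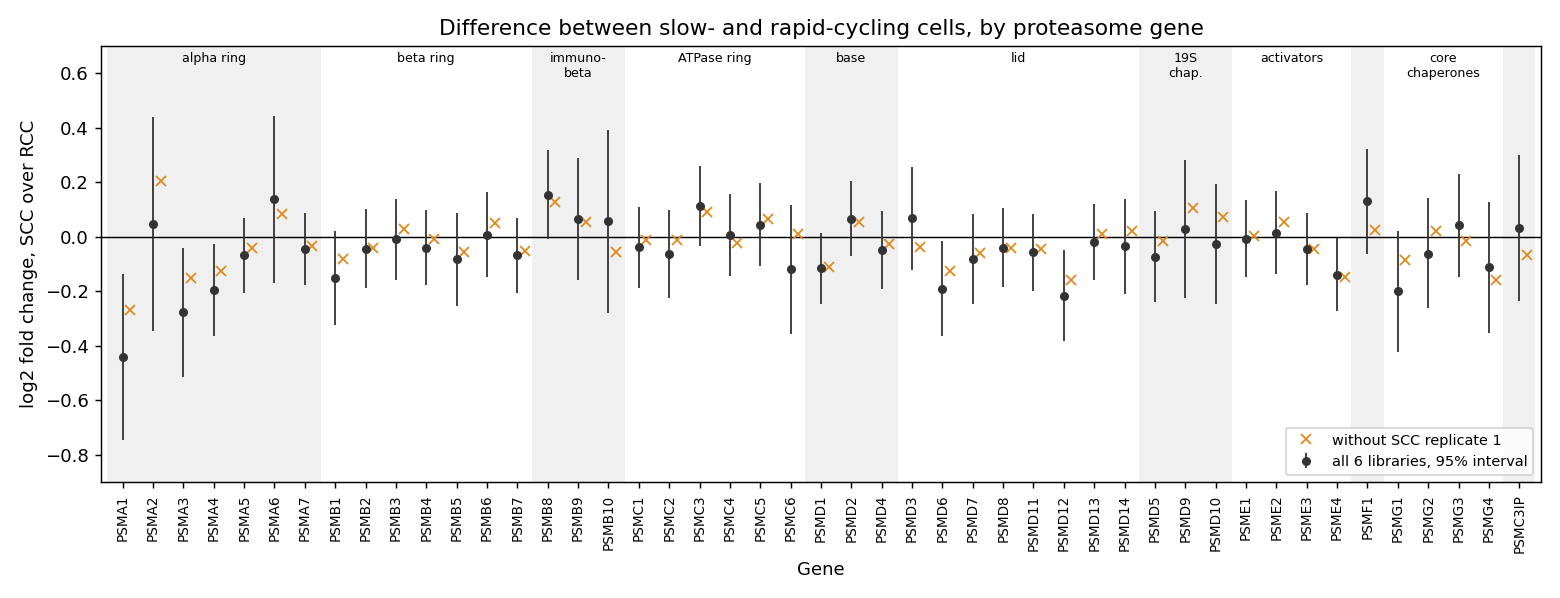
Log2 fold change of SCC over RCC for the 47 tested genes by role; black points are the fit on 6 libraries with 95% intervals, orange crosses the fit without SCC replicate 1. Every interval lies within 2-fold (log2 between -1 and 1), and PSMA1 has the lowest value, -0.44 with all libraries and -0.27 without SCC replicate 1.

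The alpha ring held both the gene with the lowest value, PSMA1, and PSMA6, with the second-highest after PSMB8. Of its 7 tested genes, 0 were called and 3 were lower at an unadjusted p under 0.05 (all genes 8.27%). Their median log2 fold change was -0.069, and -0.040 without SCC replicate 1. PSMA1 (ENSG00000129084, GRCh38 chromosome 11, 14504874 to 14643635) was at 26.1, 40.5 and 37.9 CPM (TMM-scaled library sizes) in SCC replicates 1 to 3 and at 44.9, 49.0 and 47.8 CPM in RCC. All SCC libraries were below all RCC libraries, and SCC replicate 1 was far below the other two. The log2 fold change of PSMA1 was -0.44 (standard error 0.14, edgeR adjusted p = 0.129). Leaving out SCC replicate 1 gave -0.27 and a call (0.0266, all genes 2.1% lower), and leaving out SCC replicate 2 gave -0.58 and a call (0.0343, all genes 1.59% lower). PSMA1 was also called lower with every gene of at least 1 count tested (all genes 0.838%), with an offset for GC content (1.54%) and with DESeq2. It was called in 7 of 18 alternatives, over all of which its adjusted p ran from 0.0012 to 0.532.

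PSMA3 and PSMA4, structural subunits of the same ring, also did not overlap between groups. PSMA3 was at 68.4, 96.1 and 85.9 CPM in SCC and 98.7, 101 and 103 in RCC, a log2 fold change of -0.28 (edgeR adjusted p = 0.199). Leaving out SCC replicate 2 gave -0.40 and a call (0.0412), and leaving out SCC replicate 1 gave -0.15 (0.119). PSMA4 was at 178, 217 and 198 CPM in SCC and 225, 231 and 223 in RCC, a log2 fold change of -0.20 (0.202), and -0.13 without SCC replicate 1 (0.129). In both genes SCC replicate 1 was the lowest library and SCC replicate 2 the nearest to RCC. PSMA6 had the highest value of the ring, 0.14 (0.597), at 8.90, 7.77 and 8.30 CPM in SCC and 8.69, 7.17 and 6.82 in RCC, with overlapping groups. PSMA2, PSMA5 and PSMA7 had log2 fold changes of 0.046, -0.069 and -0.045, with overlapping groups.

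The constitutive beta ring showed no call: 0 of 7 genes passed, 0 had an unadjusted p under 0.05, and log2 fold changes ran from -0.15 to 0.007. The catalytic subunit PSMB5, with chymotrypsin-like activity and the main target of bortezomib, was at 225, 229.6 and 244 CPM in SCC and 222, 258 and 261 in RCC (log2 fold change -0.083, 95% interval -0.25 to 0.087). PSMB6, the caspase-like subunit, was at 127, 143 and 135 CPM against 131, 141 and 131. PSMB7, the trypsin-like subunit, was at 153, 159.6 and 156 CPM against 159, 169 and 163 (log2 fold change -0.068). The groups overlapped for each of these catalytic genes. PSMB1, a structural subunit, had the lowest value of the ring, -0.15, at 156, 179.8 and 181 CPM against 178, 199 and 198. Without SCC replicate 1 its value was -0.084. PSMB2, PSMB3 and PSMB4, also structural, lay between -0.044 and -0.010.

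Immunoproteasome subunits were present at lower levels than their constitutive counterparts, and 0 of the 3 tested genes were called. PSMB8 (ENSG00000204264, GRCh38 chromosome 6, 32840717 to 32844703) was at 64.5, 60.2 and 62.2 CPM in SCC and 56.3, 58.6 and 53.1 in RCC. Every SCC library was above every RCC library, with a log2 fold change of 0.15, an interval of -0.008 to 0.32 and an edgeR adjusted p of 0.272. It shares 20.6% of its exon bases with PSMB8-AS1 on the opposite strand, so its counts are uncertain if strand was not used. PSMB9 was at 16.8, 17.0 and 15.7 CPM against 14.8, 15.5 and 17.1, and PSMB10 at 7.79, 5.88 and 6.74 against 6.22, 6.21 and 7.33. Both overlapped between groups. PSMB10 had a log2 fold change of 0.056, which was -0.055 without SCC replicate 1, and shares 34.8% of its exon bases with AC040162.1. In FPKM, PSMB8 was 16.92%, 15.45% and 15% of PSMB5 in SCC and 14.97%, 13.39% and 11.99% in RCC. The groups all but touched, at the last SCC value and the first RCC value. PSMB9 was 5.77% ± 0.41 of PSMB6 in SCC and 5.55% ± 0.52 in RCC (SD, n = 3).

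In the regulatory particle, the ATPases unfold the substrate and open the core. Of the 6 ATPase genes 0 were called, and values ran from -0.12 (PSMC6) to 0.11 (PSMC3). PSMC6 was at 112, 158 and 142 CPM in SCC and 147, 152 and 148 in RCC. SCC replicate 1 was the lowest library and SCC replicate 2 the highest, and without replicate 1 the log2 fold change was 0.009. PSMC3 was at 269, 251 and 264 CPM against 246, 252 and 226, with overlapping groups. PSMC2, PSMC4 and PSMC5 had log2 fold changes of -0.064, 0.005 and 0.043. PSMC1 shares 75.8% of its exon bases with NRDE2 on the opposite strand and has 13 annotated pseudogenes, so its level (13.4 FPKM) is uncertain.

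Among the base scaffold and the lid, 0 of 11 genes were called. PSMD2, a scaffold subunit, was at 507, 478 and 508 CPM in SCC and 483, 488 and 456 in RCC (log2 fold change 0.066). PSMD1, the other scaffold, was at 176, 177 and 180.5 CPM against 193, 194 and 191, so the groups did not overlap (-0.12, edgeR adjusted p = 0.295). Without SCC replicate 1 its value was -0.11. PSMD4, a ubiquitin receptor, was at 143, 149.7 and 151 CPM against 146, 159 and 155. PSMD14, the metalloprotease that cuts ubiquitin chains from the substrate, was at 105, 126 and 112 CPM against 119, 121 and 111. Both overlapped between groups.

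Of the 8 lid genes, PSMD12 was lowest and PSMD3 highest. PSMD12, a structural lid subunit, was at 135, 162 and 145 CPM in SCC and 173, 174 and 167 in RCC, a log2 fold change of -0.22 with a standard error of 0.076 (edgeR adjusted p = 0.162). All SCC libraries were below all RCC libraries. It was called only without SCC replicate 2 among the 18 alternatives (-0.30, 0.0429). PSMD6 had a log2 fold change of -0.19 (0.223), with its highest SCC library level with its lowest RCC library at 104 CPM. PSMD3 reached 268 CPM in SCC replicate 1, with 212 and 224 in the other SCC libraries and 221, 223 and 228 in RCC. Its log2 fold change of 0.067 became -0.038 without SCC replicate 1. PSMD7, PSMD8, PSMD11 and PSMD13 lay between -0.083 and -0.021, with overlapping groups. The summed FPKM of the 17 ATPase, base and lid genes was 692, 701 and 710.0 in SCC and 708, 730.3 and 686 in RCC, with overlapping groups. Sums of the constitutive core genes and of the activator caps also overlapped. The immunoproteasome beta sum was higher in SCC without overlap, at 30.73, 28.66 and 29.43 against 26.74, 28.05 and 27.09. That of the 4 core assembly chaperones was lower without overlap, at 57.49, 65.19 and 63.97 against 66.04, 66.17 and 66.29. These sums were not tested.

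Activators and the inhibitor PSMF1 bind the core in place of, or beside, the regulatory particle. PSME1 and PSME2, subunits of the interferon-inducible cap PA28, had log2 fold changes of -0.008 and 0.015. PSME1 was at 126, 128 and 129 CPM in SCC and 124, 133 and 128 in RCC, and PSME2 at 146, 159 and 157 against 157, 156 and 144. PSME4, the nuclear activator PA200, was at 149, 147 and 147 CPM against 165, 160.1 and 163. These groups did not overlap (log2 fold change -0.14, standard error 0.061, edgeR adjusted p = 0.238), and leaving out SCC replicate 1 gave -0.15 (0.0641). PSME3, the other nuclear cap, had -0.045. PSMF1 reached 151 CPM in SCC replicate 1, with 123 and 122 in the other SCC libraries and 124, 120.5 and 118 in RCC. The log2 fold change of PSMF1 was 0.13 with all libraries and 0.023 without SCC replicate 1.

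Assembly chaperones were not called either, 0 of 4 for the core and 0 of 3 for the regulatory particle. PSMG1 and PSMG2 form a dimer that builds the alpha ring. PSMG1 was at 46.7, 61.1 and 58.8 CPM in SCC and 63.6, 61.4 and 66.2 in RCC, a log2 fold change of -0.20 (edgeR adjusted p = 0.29) and -0.087 without SCC replicate 1. PSMG2 was at 60.8, 75.3 and 70.1 CPM against 71.7, 76.3 and 67.0. PSMG3 and PSMG4, a second dimer of the same pathway, had log2 fold changes of 0.042 and -0.11. PSMG3 was at 40.1, 34.5 and 36.8 CPM against 36.6, 34.5 and 37.2, and PSMG4 at 13.0, 12.0 and 11.6 against 13.3, 12.4 and 13.9. Of the chaperones of the ATPase ring, PSMD5 was at 75.0, 87.7 and 81.7 CPM against 85.2, 87.8 and 84.0, and PSMD9 at 13.1, 15.4 and 15.5 against 14.7, 15.2 and 13.0. PSMD10 had a log2 fold change of -0.028. PSMC3IP, which is no proteasome part, was at 27.2, 20.6 and 24.6 CPM against 25.9, 21.0 and 24.1. Apart from PSMG1, the groups of these genes overlapped.

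SCC replicate 1 was the lowest of the 6 libraries in 24 of 47 proteasome genes, against 29.5% of all tested genes, and the highest in 8 of 47, against 31.9% of all. Across the 47 genes the log2 fold change had a Pearson r of 0.42 with GC content (Spearman 0.49), and 0.18 (0.21) without SCC replicate 1. These are descriptions across genes that share libraries, not replicates. The 16 genes under 45% GC had a median log2 fold change of -0.095, and 14 of them were negative. The other 31 had a median of -0.010, and 17 were negative. Without SCC replicate 1 the medians were -0.041 and -0.016, and the median of all 47 was -0.024, with 29 negative. With an offset for GC content in the fit, the median of the 47 genes was -0.048.

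**Figure D3:**
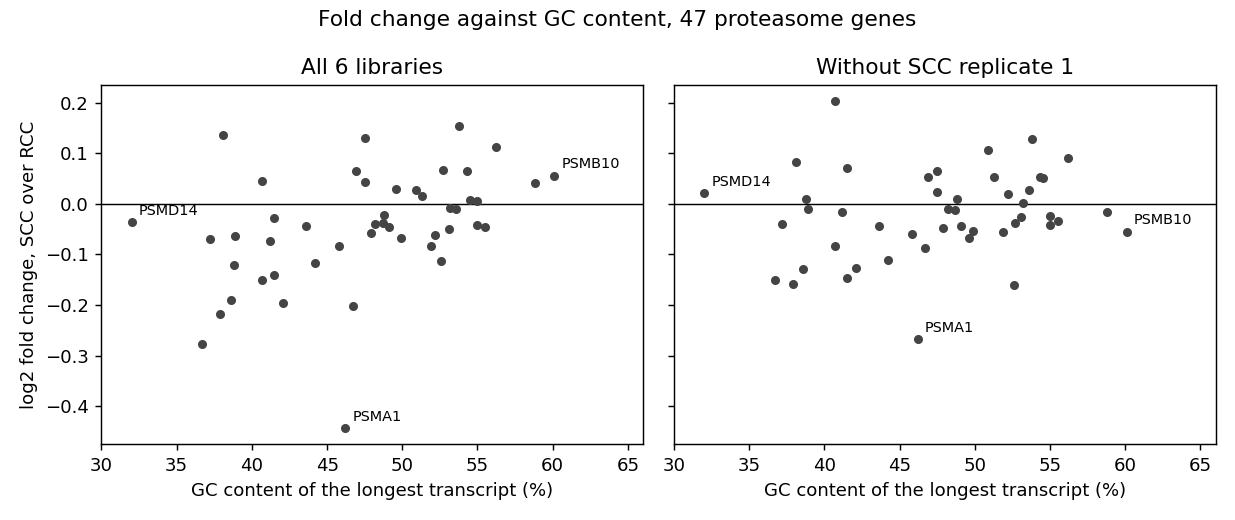
Log2 fold change of SCC over RCC against the GC content of the longest transcript (%), 47 proteasome genes, with all libraries (left) and without SCC replicate 1 (right). Low-GC genes lie mostly below zero on the left, and the spread is smaller on the right; PSMA1 is the lowest point in both panels.

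Related genes outside the name rule were taken from lists of proteasome partners. Among 16 other subunits, assembly and associated factors, 2 were called higher and 0 lower (all genes 1.69% and 0.378%), with a median of -0.038, and -0.020 without SCC replicate 1. The subunits themselves were not called. ADRM1, a ubiquitin receptor, had a log2 fold change of 0.24 (edgeR adjusted p = 0.295), from 215 CPM in SCC replicate 1 alone (the other libraries were at 143 to 155), and 0.048 without that library. SEM1, the smallest lid subunit, had -0.28 (0.198), and POMP, the core maturation factor, -0.12 (0.386). Without SCC replicate 1 these were -0.16 for SEM1 and -0.051 for POMP. SEM1 was called lower in 1 of 18 alternatives, with every gene of at least 1 count tested (0.0423). PAAF1, USP14 and UCHL5, a chaperone and the deubiquitinases of the cap, had -0.056, -0.14 and -0.15, with adjusted p of 0.814, 0.305 and 0.293. Without SCC replicate 1 they were 0.007, -0.077 and -0.093. The called genes were ZFAND5 and ZFAND2A, zinc finger proteins that bind the 26S proteasome. ZFAND5 was at 167, 164 and 158 CPM in SCC and 120.2, 122 and 125 in RCC, a log2 fold change of 0.41 with a standard error of 0.063 (edgeR adjusted p = 0.00626). ZFAND2A, a stress-induced gene, was at 16.6, 16.0 and 17.4 CPM against 12.3, 9.84 and 11.7 (0.56, standard error 0.12, adjusted p = 0.0331). The groups of both were apart. ZFAND5 was not called without RCC replicate 1, 2 or 3 (0.0977, 0.0687 and 0.0587), nor ZFAND2A without RCC replicate 1, 2 or 3 (0.104, 0.162 and 0.139) or SCC replicate 3 (0.111), nor by limma on log2(FPKM + 1) without a filter (0.177).

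Ubiquitin marks proteins for the proteasome. UBB, a polyubiquitin gene, was at 522, 442 and 455 CPM in SCC and 419, 402 and 389 in RCC, without overlap (log2 fold change 0.23, edgeR adjusted p = 0.142), and was called in 3 of 18 alternatives: without SCC replicate 1 (0.15, 0.0419) and with the 2 fits that have a GC offset (0.0491 and 0.0244). VCP, the segregase that hands proteins to the proteasome, had a log2 fold change of 0.041 (edgeR adjusted p = 0.727), and 0 of 13 shuttle receptor and p97 genes were called.

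Of 16 regulators of the subunit genes, 1 was called higher and 0 lower (all genes 1.69% and 0.378%). Their median log2 fold change was 0.11, and 0.051 without SCC replicate 1. NFE2L1 was at 395, 349.6 and 368 CPM in SCC and 339, 334 and 328 in RCC, above RCC in every library (log2 fold change 0.15, interval 0.007 to 0.30, edgeR adjusted p = 0.237). Its log2 fold change was 0.105 without SCC replicate 1 (edgeR adjusted p = 0.185) and 0.061 with the GC offset (0.483). NFE2L2 (NRF2), DDI2, which cleaves NFE2L1, and NGLY1, which deglycosylates it, had -0.071, -0.14 and -0.060, with adjusted p of 0.606, 0.363 and 0.744. The called gene was MAFF, a small MAF protein that pairs with NFE2L factors, at 118, 92.8 and 90.9 CPM against 49.1, 49.6 and 51.4. MAFF had a log2 fold change of 1.01 (standard error 0.10, edgeR adjusted p = 3.6e-04), and of 0.88 without SCC replicate 1. It was called in 17 of 18 alternatives, the exception being limma on log2(FPKM + 1) without a filter (0.92, adjusted p = 0.0531).

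Class I peptide processing, which uses proteasome products, had 2 of 15 genes called higher and 0 lower (all genes 1.69% and 0.378%). The median was 0.094, and 0.155 without SCC replicate 1. HLA-B was at 132, 119 and 132 CPM in SCC and 80.1, 71.4 and 72.4 in RCC (log2 fold change 0.77, standard error 0.077, edgeR adjusted p = 3.5e-04), and was called in all 18 alternatives. IRF1, an interferon response factor, was at 19.1, 15.1 and 19.4 CPM against 9.69, 10.8 and 7.55 (0.93, adjusted p = 0.00906). IRF1 was called in 13 of 18 alternatives. The call was lost on leaving out RCC replicate 1 (0.0613) or 3 (0.0545), and by limma on log2(FPKM + 1) with and without the filter (0.0799 and 0.271) or on log2(FPKM + 0.1) (0.0881). TAP1, whose gene neighbours PSMB8 and PSMB9, was at 51.3, 39.8 and 46.0 CPM against 39.9, 38.9 and 39.4 (0.22, adjusted p = 0.249), and had 0.12 without SCC replicate 1. Whether HLA-B and IRF1 differ in response from PSMB8, PSMB9 and PSMB10 was not tested.

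**Figure D4:**
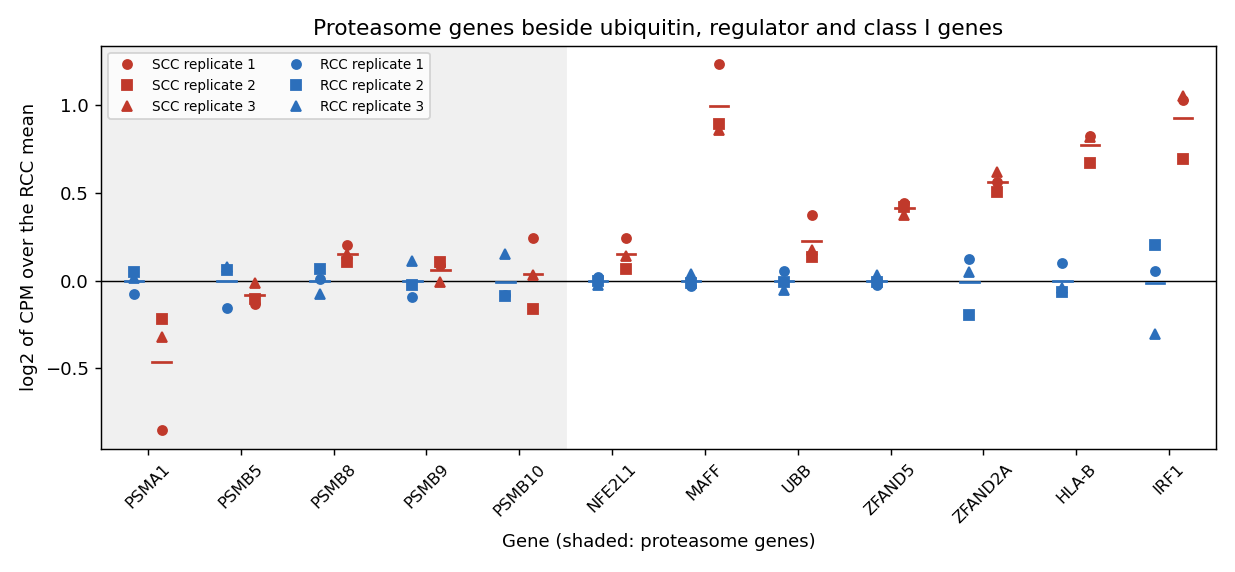
Log2 of CPM over the RCC mean for 5 proteasome genes (shaded) and 7 related genes in each library; bars are the mean of the 3 libraries of a group. PSMB5, PSMB9 and PSMB10 overlap between groups, PSMA1 is lower and PSMB8 higher in SCC without passing the test, and MAFF, ZFAND5, ZFAND2A, HLA-B and IRF1 passed it, while NFE2L1 and UBB did not.

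The COP9 signalosome, a complex built like the lid, had 0 of 10 genes called (all genes 1.69% higher and 0.378% lower). Its median was -0.11, and -0.045 without SCC replicate 1. At an unadjusted p under 0.05, 3 of its genes were lower (all genes 8.27%) and 1 was higher (all genes 11.4%). The groups did not overlap for 4 genes lower in SCC (all genes 13.4%) and 2 higher (all genes 14.4%). NRF2 target genes had 0 of 12 called and a median of 0.067, which was 0.106 without SCC replicate 1. At an unadjusted p under 0.05, 5 of them were higher (all genes 11.4%) and 1 was lower (all genes 8.27%).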

How the data were processed

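The deposited files held, per gene, counts (whole numbers) and FPKM for 6 libraries, 3 SCC and 3 RCC, each with gene lengths. HISAT2 2.0.5 and featureCounts 1.5.0-p3 are named in the submitters' processing notes, without their settings. Genome build and use of strand are not given in the sources used here. All 58735 rows had the position of GENCODE release 29 (GRCh38), and the deposited length equalled the summed exon length for all 49 genes. The deposited FPKM values, made by the authors, were used for levels between genes and in limma 3.58.1.

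The test was edgeR 4.0.16 (R 4.3.3): filterByExpr (minimum count 10), TMM scaling, glmQLFit on group, two-sided quasi-likelihood F test, Benjamini-Hochberg adjustment over 15881 genes, called under 0.05. Standard errors are the log2 fold change over the square root of F, and 95% intervals use the fit's degrees of freedom. The test was run on simulated counts that had no GC bias and no outlying library, so that check does not cover these features of the data. DESeq2 1.42.0, limma on log2(FPKM + 1) and log2(FPKM + 0.1) at FPKM of at least 1 in 3 libraries, limma without that filter, other scalings and filters, thinning, a GC offset (lowess, span 0.3, GC of the longest GENCODE transcript), a replicate block and each library left out were alternatives. No pair of libraries agreed within sampling noise.

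The members and lists were chosen with earlier results of these data known. Values in every library are given for called members, the highest and lowest member of each role, and PSMB5 to PSMB10, PSME1, PSME2, PSMD4, PSMD14, PSMF1 and PSMG1 to PSMG4. Named outside the members are NFE2L1, NFE2L2, DDI2, NGLY1, ADRM1, SEM1, POMP, PAAF1, USP14, UCHL5, UBB, VCP, TAP1, IRF1 and called genes of the related lists, except an item that is not reported here. PSMA3, PSMA4 and PSMD6 were chosen after their values were seen. Proteins were not compared.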

Additional observations from a re-analysis of the deposited data

How the results depend on the processing

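The count of proteasome genes called higher was 0 in 17 of 18 alternatives and 1 (PSMD14) with the GC offset and the replicate block together. The count called lower was 1, in each case PSMA1, with DESeq2 (adjusted p 0.0402), with every gene of at least 1 count tested (0.0012), with the replicate block (0.0402, all genes 0.667% lower), with the GC offset (0.0444) and with the GC offset and the replicate block (0.0022, all genes 2.72% lower and 3.91% higher). Same-numbered libraries did not deviate together (correlations -0.009, 0.025 and -0.079), and the main fit did not take the numbers as pairs. With 3 libraries per group these correlations cannot show whether cultures or sorts were shared. With a library left out, the count called lower ranged from 0 to 3. It was 3 (PSMA1, PSMA3 and PSMD12) on leaving out SCC replicate 2, where 1.59% of all genes were called lower. It was 1 (PSMA1) on leaving out SCC replicate 1, where that share was 2.1%. For each other library the count was 0, and at most 0.116% of all genes were called lower. The median log2 fold change stayed negative, from -0.073 without SCC replicate 3 to -0.024 without SCC replicate 1. Chosen after seeing the data, leaving out PSMC3IP gave -0.042, and leaving out genes that share over 10% of their exon bases gave -0.044, both with 0 called.

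Some genes changed sign, mostly with the GC offset, alone and with the replicate block. They include ADRM1, UCHL5 and POMP, at 0.24, -0.15 and -0.12 in the main fit. The values were -0.022 and -0.021 for ADRM1, 0.091 and 0.092 for NGLY1, 0.054 and 0.054 for POMP, -0.125 and -0.125 for PSMB10, -0.070 and -0.074 for PSMB6, 0.175 and 0.175 for PSMD14 (adjusted p 0.0498 with the block), -0.011 and -0.011 for PSMD2, 0.009 and 0.009 for PSMD5, -0.003 and -0.003 for PSMD9, -0.018 and -0.019 for PSME2, -0.110 and -0.111 for PSMG3, 0.014 and 0.014 for UCHL5, and -0.002 and -0.002 for VCP. Among the other members, the GC offset alone turned PSMA5 from -0.069 to 0.07 and PSMB2 from -0.044 to 0.018. It also turned PSMC2 from -0.064 to 0.049, PSMC4 from 0.005 to -0.082 and PSMD10 from -0.028 to 0.05. PSMB6 was -0.010 and PSME2 -0.002 with upper-quartile scaling, and PSMD9 was -0.017 after thinning. Without one library, ranges that crossed zero included -0.151 to 0.005 for NGLY1, -0.171 to 0.007 for PAAF1, -0.055 to 0.134 for PSMB10, -0.051 to 0.051 for PSMB6, -0.067 to 0.117 for PSMC3IP, -0.248 to 0.009 for PSMC6, -0.121 to 0.021 for PSMD14, -0.038 to 0.121 for PSMD3, -0.041 to 0.106 for PSMD9, -0.042 to 0.017 for PSME1, -0.031 to 0.053 for PSME2, -0.146 to 0.020 for PSMG2 and -0.016 to 0.077 for PSMG3. The causes were not tested. Depth limits the 2 genes at 0 counts, and the widest intervals among the rest include those of PSMA2 and PSMA6, at 4.23 to 8.90 CPM.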

Other observations

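The table holds 37 further rows named after these genes, 32 pseudogenes and 5 antisense or long intergenic RNAs, of which 7 were tested and 0 called by edgeR (1 had an unadjusted p under 0.05). PSMA3-AS1, an antisense RNA of PSMA3, was at 30.2, 39.8 and 33.4 CPM in SCC and 40.9, 41.4 and 43.5 in RCC, without overlap (log2 fold change -0.28, edgeR adjusted p = 0.175). PSMG3-AS1 was at 7.42, 4.96 and 5.41 CPM in SCC and 4.83, 4.68 and 4.53 in RCC (0.35, adjusted p = 0.299). No pseudogene passed 3.35 CPM in any library. These rows were chosen after their values were seen.

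AKIRIN2, known as a factor that brings proteasomes into the nucleus, was at 74.1, 55.5 and 60.6 CPM in SCC and 45.1, 44.7 and 52.8 in RCC, without overlap. Its log2 fold change of 0.42 did not pass the threshold (edgeR adjusted p = 0.0879), but did without SCC replicate 1 (0.29, 0.0171). It too was chosen after its values were seen.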
